A study of Mus musculus with 10 samples.

Results

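Imprinted genes are transcribed mainly from the copy inherited from 1 parent. Here 38 of them were followed in 10 RNA sequencing libraries of cultured mouse pluripotent cells. They were chosen by name from known imprinted genes and not by a rule on their levels, though earlier results of these data were known. All 38 had an entry among the 22867 gene symbols of the deposited tables. The cells were embryonic stem cells (ESCs), grown with LIF and with inhibitors of GSK3 (CHIR99021, 3.3 µM) and MEK (PD0325901, 0.8 µM), which keep pluripotency naive. Epiblast-like cells (EpiLCs), which stand for the early post-implantation epiblast, were derived by 48 h of culture in which bFGF and knockout serum replacement were present. The series asked which genes change in this conversion, and what the homeobox factor Otx2 does in it when lost or overexpressed.

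The lines with no Otx2 change in their labels were R1 (2 ESC libraries, 1 EpiLC library without activin A and 1 with activin A at 20 ng/ml) and E14 (1 ESC and 1 EpiLC library). An Otx2-/- line gave 1 ESC and 1 EpiLC library. Whether activin A was present is not stated for E14 and Otx2-/- EpiLC. The other pair of ESC libraries is Otx2-/- too, carries an Otx2 transgene under tetON control, and was grown without and with doxycycline (dox). All lines are of 129SV strain per the labels, which do not give the deleted part of Otx2, the number of clones or the dose of dox. The parental copies were not told apart in these data, so a level is the sum of both copies and says nothing of which copy was read.

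Most imprinted genes lie in clusters. In each, a control region that carries DNA methylation on 1 parental copy sets which genes of the cluster are read, often through a long noncoding RNA or through insulation of an enhancer. The maternally expressed members often restrain growth and the paternally expressed ones often promote it. In naive mouse ESCs much DNA methylation is lost, while the control regions are protected by the zinc finger protein ZFP57 with TRIM28, and lines are known to differ in how well imprints are kept.

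From the locus column, neighbours within 3 Mb were taken as a cluster. The 38 genes fell into 18 groups, 7 of them with more than 1 member and 11 genes standing alone. The largest group, on chromosome 7 from 149761437 to 150688429 on build mm9, holds H19, Igf2, Ascl2, Kcnq1ot1, Cdkn1c, Slc22a18 and Phlda2. By textbook knowledge 16 are maternally and 21 paternally expressed, and Gnas makes products of either kind. At least 5 FPKM (fragments per kilobase of transcript, scaled to the mapped fragments of the library, the unit of all levels here) was reached by 28 genes in at least 1 library and by 13 in every library, while 6 stayed under 1 FPKM throughout.

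Promoter sequences show what some members share. RefSeq windows (build GRCm38.p6, from 250 bases before to 50 after a start site) were found for 31 of the 38 genes, and not for Sgce, Peg10, H19, Cdkn1c, Dcn, Peg13 and Impact. The letters TGCCGC, or GCGGCA when read on the other strand, are the core that ZFP57 binds when methylated. They occurred in a window of 11 of the 31 genes (35.5%), against 13.1% of the 27025 genes with a window. They were present in 7 of 12 members known for a germline methylated region at the promoter and in 4 of the other 19. Counted by window this was 8 of 18 and 4 of 28. The class was set by a list of gene names. Usp29, whose window overlaps that of Peg3, and Gnas were counted among the other 19 and held no match. Whether a given window lies in the methylated region was not checked. The members' windows also held more CG dinucleotides, with a median of 13 against 7 in all windows, so base composition differs with the motif. A match is only a match of letters, and methylation was not measured here. The 250 bases before the start are shown for Plagl1, the member called lower in EpiLC, at chr10:13090582-13090831 on the plus strand, and for Mest, which has a pair of matches, at chr6:30737800-30738049 on the plus strand. Capitals mark the match.
Plagl1: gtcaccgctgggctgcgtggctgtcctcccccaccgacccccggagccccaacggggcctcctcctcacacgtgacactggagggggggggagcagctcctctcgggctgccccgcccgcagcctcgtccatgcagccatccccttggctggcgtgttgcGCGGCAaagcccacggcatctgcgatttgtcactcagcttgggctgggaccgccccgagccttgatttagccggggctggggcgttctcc
Mest: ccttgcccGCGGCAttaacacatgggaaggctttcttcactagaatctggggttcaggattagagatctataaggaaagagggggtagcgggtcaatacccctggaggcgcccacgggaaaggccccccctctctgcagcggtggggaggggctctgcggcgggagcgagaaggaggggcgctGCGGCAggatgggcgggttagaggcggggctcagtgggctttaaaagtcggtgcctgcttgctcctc

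Peg3 and Usp29 are read in opposite directions from start sites that face away from each other. The whole stretch between the sites is 163 bases, at chr7:6730420-6730582 on GRCm38.p6. It is shown on the plus strand, on which Usp29 is read, with its 5 CG dinucleotides in capitals. It was chosen because the levels of both genes were higher in each EpiLC library of R1 and E14 than in each ESC library. Their windows held no TGCCGC.
Peg3 to Usp29: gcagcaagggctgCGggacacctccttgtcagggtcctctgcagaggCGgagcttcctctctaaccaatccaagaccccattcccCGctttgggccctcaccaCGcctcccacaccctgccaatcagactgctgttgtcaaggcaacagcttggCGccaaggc

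Depth was approximated from the lowest values of olfactory receptor genes and lay between 6.52 and 20.6 (in units of 1e+06 fragments) per library, so that 5 FPKM of a 2 kb transcript rested on about 65.2 to 206 fragments. Otx2 itself had 5.72, 9.09 and 3.96 FPKM in R1 and E14 ESC, 107 in R1 EpiLC without activin A, 151 with it and 39.9 in E14 EpiLC. In the libraries labelled Otx2-/- it had 7.85 FPKM in ESC, 15.8 in EpiLC, 45.8 in the tetON ESCs without dox and 1059 with dox. It was thus lower in the EpiLC library labelled Otx2-/- than in R1 and E14, but in ESC its level did not show the loss, and without dox the transgene line held more than E14 EpiLC. The deleted part is not given, so these levels over the gene do not check the deletion, and Otx2-/- is used here as a label. Naive and EpiLC markers followed the labelled state: Klf4, a factor of naive cells, had at least 73.2 FPKM in the 5 ESC libraries without dox, 22.8 with dox and at most 1.09 in EpiLC. Fgf5, a marker of EpiLC, had at most 0.809 FPKM in the ESC libraries without dox, 3.63 with dox, between 28.4 and 35.8 in R1 and E14 EpiLC and 5.18 in Otx2-/- EpiLC. Other markers differed from these. Esrrb, Nanog and Zfp42 were lower with than without dox like Klf4, but the naive factor Tfcp2l1 had 148 FPKM with and 126 without. The EpiLC marker Pou3f1 had 74.2 FPKM in Otx2-/- EpiLC, above the 42.0 to 72.2 of R1 and E14 EpiLC. Dnmt3b had 289, within their range of 159 to 337. Among ESC libraries R1 replicate 1 stood apart, so results that rest on it are given with and without it. The protocol names no strand-marking step, and 17 members share their deposited locus with another entry, among them Igf2r with Airn, Mest with Copg2, Zrsr1 with Commd1 and Kcnq1ot1 with Kcnq1. Reads of such overlapping genes cannot be told apart with certainty.

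**Figure D1:**
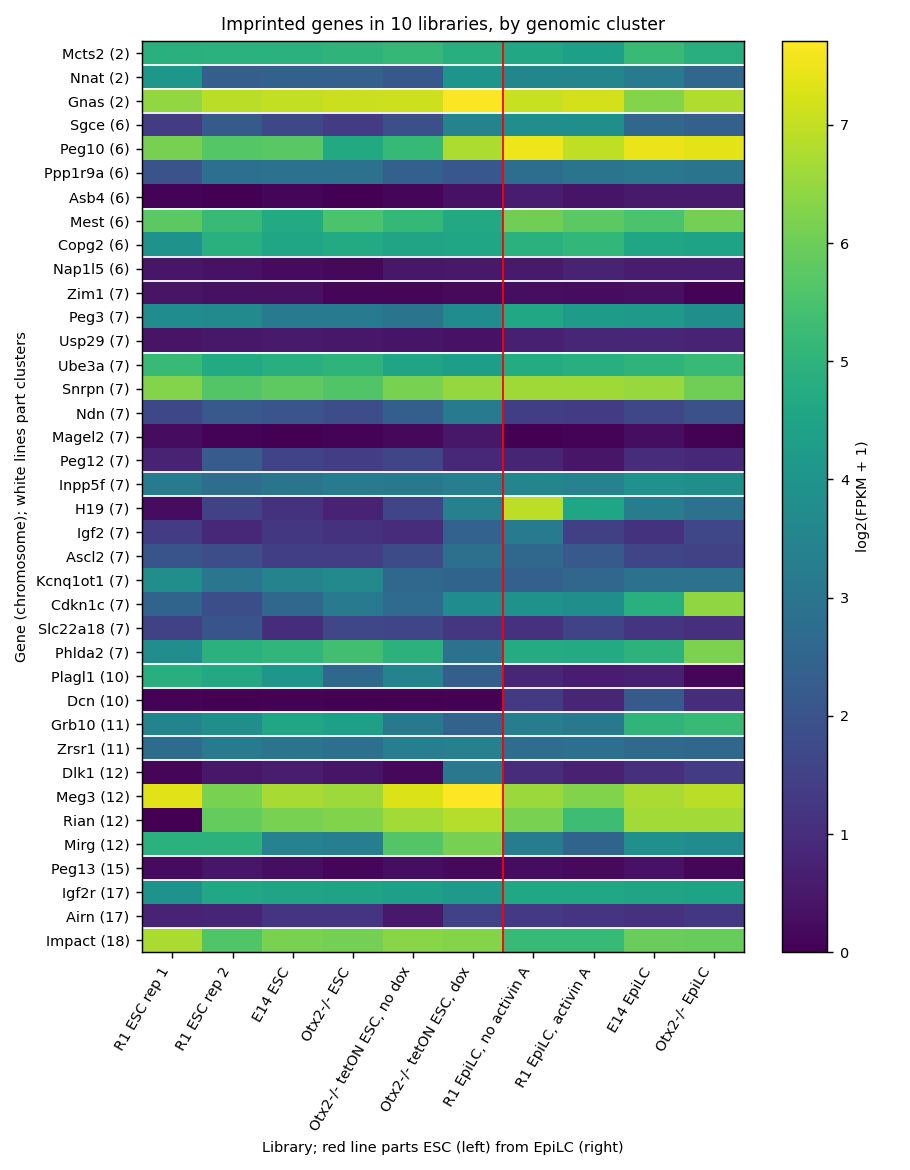
Levels of the 38 imprinted genes as log2(FPKM + 1) (colour scale), with genes in rows by chromosome and position, clusters parted by white lines, and the 10 libraries in columns, 6 ESC left and 4 EpiLC right of the red line. Meg3, Gnas, Peg10 and Snrpn are among the bright rows, H19 and Cdkn1c brighten in EpiLC, Plagl1 darkens there, and 6 genes stay under 1 FPKM in every library.

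On conversion of R1 and E14 ESC to EpiLC, 5 imprinted genes rose and 1 fell of the 30 that had a mean of at least 1 FPKM. H19, Cdkn1c, Peg10, Sgce and Peg3 rose, and Plagl1 fell. The share of calls, 20.0%, lay near the 20.3% of all 12244 genes tested that were called in this comparison (9.73% higher and 10.6% lower), so the count is no particular result of imprinted genes. The test was limma on log2(FPKM + 1) with the line as a covariate, on 3 libraries against 3, with Benjamini-Hochberg adjustment over all genes. The median log2 fold change of the 30 was 0.25, against -0.09 over all genes. At an unadjusted p under 0.05 were 10 members, against 36.8% of all genes. Of maternally expressed members 2 of 13 were called and of paternally expressed ones 4 of 16. Without R1 ESC replicate 1 the calls were 10 higher and 4 lower of 31, in a fit that called 33.5% of all genes. Without R1 EpiLC grown without activin A 2 were called (3.26% of all genes), and without R1 EpiLC with activin A 3 (4.92%). Leaving out R1 ESC replicate 2 gave 3 (15.0%), E14 ESC 4 (6.88%) and E14 EpiLC 4 (6.32%). Calls over all genes were thus fewer in these fits too. Plagl1 passed the filter on low values through its ESC level alone. In the fit without R1 ESC replicate 1, Dcn passed it through its EpiLC level alone.

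Plagl1, which encodes a zinc finger transcription factor that restrains growth and acts on other imprinted genes, lies on chromosome 10 at 12810594 to 12851501 (mm9). ESC held 28.2 (R1 replicate 1), 24.1 (R1 replicate 2) and 16.0 FPKM (E14). In EpiLC it had 0.780 FPKM in R1 without and 0.494 with activin A, and 0.612 in E14. The ESC and EpiLC libraries were far apart and did not overlap. The mean went from 22.8 ± 6.22 to 0.629 ± 0.143 FPKM (SD, n = 3 each). On the log2 scale that is -3.83, with an SE of 0.20 (limma adjusted p = 0.00141). It stayed called in all 16 fits made for this comparison, the main one included. As Plagl1 passed the filter on low values through its ESC level alone, its call is given beside the levels and not as support for a fall.

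Cdkn1c encodes the cell cycle inhibitor p57 and is maternally expressed. It lies on chromosome 7 at 150644244 to 150646955 (mm9). Its level was 4.57 and 2.64 FPKM in R1 ESC and 5.06 in E14 ESC, and 14.2, 13.2 and 28.6 in R1 EpiLC without activin A, R1 EpiLC with it and E14 EpiLC. Each EpiLC library was above each ESC library, and E14 EpiLC was the highest of these 6. On the log2 scale the change was 1.90, with an SE of 0.23 (limma adjusted p = 0.00709), and it too was called in all 16 fits.

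H19, a maternally expressed noncoding RNA on chromosome 7 at 149761437 to 149764051 (mm9), was nearly silent in ESC, with 0.186 and 1.81 FPKM in R1 and 1.20 in E14. In EpiLC it had 122 FPKM in R1 without activin A, 22.4 with it and 8.55 in E14. The groups did not overlap, but the EpiLC libraries differed greatly among themselves, so that their mean of 51.1 had an SD of 62.2 (n = 3). The log2 fold change was 3.96 (SE 0.88, limma adjusted p = 0.0329). The call was kept without R1 ESC replicate 1 (3.34, limma adjusted p = 0.0479). It ended when any other of the 6 libraries was left out (limma adjusted p between 0.0602 and 0.0801, and between 0.0167 and 0.0801 over all alternatives), and with a pseudocount of 5 FPKM (0.0605).

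H19 and other fetal members are also abundant in embryonic fibroblasts, which are used as feeder cells. The 9 fibroblast markers summed to between 2.48 and 3.44 FPKM in the 3 ESC libraries and between 5.80 and 8.29 in the 3 EpiLC libraries. Most of this came from Thy1 and Pdgfrb. The collagen genes Col1a1, Col1a2 and Col6a1 were each higher in all 3 EpiLC libraries than in the 3 ESC libraries, and Col1a2 went from at most 0.169 FPKM to 1.62 in R1 without activin A, 0.329 with it and 1.23 in E14. Col1a2 was thus highest in the library with the most H19. Postn was listed at 0 in all 6, Lum had at most 0.0521 FPKM and Col3a1 at most 0.0182. Their part in the result was not tested.

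Igf2, the paternally expressed growth factor that neighbours H19, did not follow it in every library. It had 1.53, 0.844 and 1.39 FPKM in the ESC libraries and 8.08 in R1 EpiLC without activin A, but 1.77 with it and 1.19 in E14 EpiLC. Only the library with the highest H19 stood apart. The log2 fold change was 0.77 (SE 0.54) and did not pass (limma adjusted p = 0.344).

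Peg10 and Sgce are neighbours on chromosome 6, with deposited loci at 4697306 to 4710516 and 4624350 to 4697204 (mm9), and both are paternally expressed. Peg10, a gene derived from a retrotransposon and needed in the placenta, had 69.8, 50.4 and 52.3 FPKM in the 3 ESC libraries (R1 replicates 1 and 2, then E14). In EpiLC it had 183 in R1 without activin A, 126 with it and 177 in E14. The log2 fold change was 1.47 (SE 0.23, limma adjusted p = 0.0133). Sgce, which encodes the membrane protein epsilon-sarcoglycan, had 1.53, 3.52 and 2.19 FPKM in ESC in the same order and 12.7, 13.3 and 4.83 in EpiLC (log2 change 1.66, SE 0.34, limma adjusted p = 0.0266). Both rose without overlap of the groups, and in Sgce E14 EpiLC lay well below the R1 pair. For Peg10 the call was lost on leaving out R1 EpiLC grown without activin A (limma adjusted p = 0.0794), E14 ESC (0.0741) or E14 EpiLC (0.0772), with a range of 0.00455 to 0.0794 over all alternatives. For Sgce it was lost on leaving out R1 ESC replicate 2 (limma adjusted p = 0.0571), R1 EpiLC grown without activin A (0.123) or with it (0.113), with a range of 0.0111 to 0.123.

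The other members of that cluster were not called. Ppp1r9a, an actin-binding protein gene, had between 2.96 and 7.43 FPKM over all 10 libraries and a log2 fold change of 0.38 (limma adjusted p = 0.326). Asb4, a subunit of a ubiquitin ligase, was under the filter of 1 FPKM, with at most 0.0738 FPKM in R1 and E14 ESC and between 0.363 and 0.546 in EpiLC. In a fit with no filter on low values it was called higher (log2 fold change 0.48, limma adjusted p = 0.0119), as was Dcn (1.40, limma adjusted p = 0.0289), and none of the other 6 members under the filter was.

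Peg3, a paternally expressed zinc finger gene on chromosome 7 at 6658671 to 6683130 (mm9), had 12.4 and 11.9 FPKM in R1 ESC, 8.0 in E14 ESC, and 23.5, 18.1 and 16.6 in R1 EpiLC without activin A, with it and in E14 EpiLC. The groups did not overlap, and the log2 change was 0.80, with an SE of 0.16 (limma adjusted p = 0.0230). The call held without R1 ESC replicate 1 (0.84) and ended without any other of the 6 libraries (limma adjusted p between 0.0588 and 0.145, and between 0.00571 and 0.145 over all alternatives). Usp29, whose start faces away from that of Peg3, was under the filter, with between 0.338 and 0.463 FPKM in the 3 ESC and between 0.609 and 0.782 in the 3 EpiLC libraries. Zim1, the maternally expressed neighbour, had at most 0.313 FPKM in any library. Also under 1 FPKM throughout were Nap1l5, a histone chaperone family gene (0.114 to 0.706), Magel2, a regulator of ubiquitin ligases (0.0145 to 0.413), and the noncoding RNA Peg13 (0.0886 to 0.373).

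**Figure D2:**
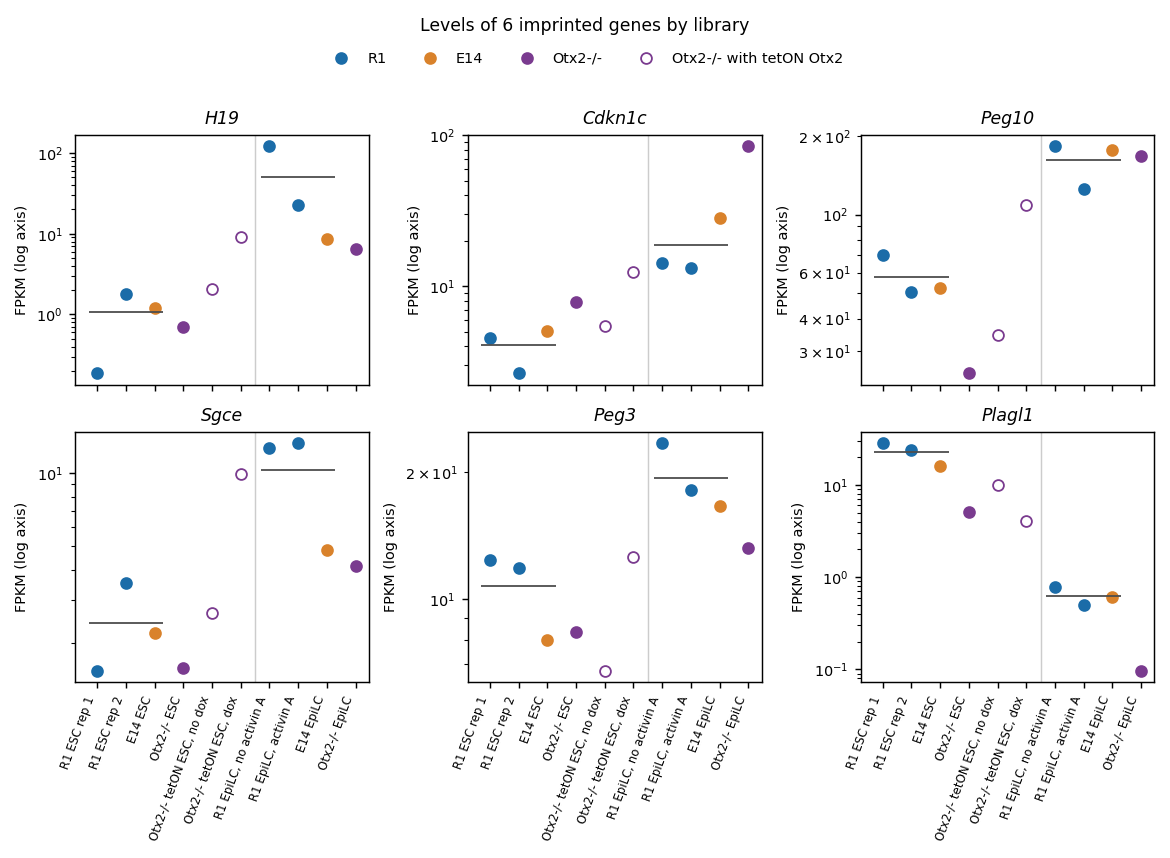
FPKM on a log axis of the 6 genes called between R1 and E14 ESC and EpiLC, with 1 point per library. The colour is the line, open points carry the tetON Otx2 transgene, and horizontal lines are means of the 3 R1 and E14 libraries of a state. Plagl1 falls from at least 16.0 to at most 0.780 FPKM, H19 spreads from 8.55 to 122 in R1 and E14 EpiLC, and Cdkn1c reaches 85.2 in Otx2-/- EpiLC.

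Without R1 ESC replicate 1, 8 further genes joined these 6, and calls over all genes rose as well, from 20.3% to 33.5%. Mest (log2 fold change 0.75 in that fit), Snrpn (0.86), Inpp5f (0.80) and Nnat (1.02) were then called higher, and Kcnq1ot1 (-0.58), Ndn (-0.61) and Peg12 (-1.15) lower. Dcn (1.52) was called higher too, but it passed the filter through its EpiLC level alone, so its call is no support for a rise. With all 6 libraries, Snrpn, which encodes a splicing protein and overlaps Snurf, had 60.3 ± 15.1 FPKM in ESC and 94.5 ± 3.71 in EpiLC (SD, n = 3 each; log2 fold change 0.66, limma adjusted p = 0.0722). Kcnq1ot1, the noncoding RNA that silences the Cdkn1c domain on the paternal copy, had 13 and 7.21 FPKM in R1 ESC, 9.89 in E14 ESC, and 4.17, 4.78 and 6.38 in R1 EpiLC without activin A, with it and in E14 EpiLC. The Kcnq1ot1 libraries did not overlap, while the log2 fold change of -0.83 did not pass (limma adjusted p = 0.0666). In all, the groups of 10 of the 30 genes did not overlap, 7 higher and 3 lower in EpiLC, against 45.2% of all genes (19.7% higher and 25.5% lower).

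Nnat, a small membrane protein gene of the nervous system that lies in an intron of Blcap, had 16.1 FPKM in R1 ESC replicate 1 but 3.97 in replicate 2 and 4.30 in E14 ESC. In R1 and E14 EpiLC it had between 8.0 and 10.5. Replicate 1 was thus above the EpiLC libraries and the other ESC libraries below them. Dcn, a matrix protein gene imprinted in placenta, had between 0.785 and 3.51 FPKM in R1 and E14 EpiLC and at most 0.0605 in all 6 ESC libraries, where R1 replicate 2 and the tetON library without dox listed it at 0. It passed the filter without replicate 1 through its EpiLC level alone. It is itself a fibroblast gene, and the marker sums given beside H19 were likewise higher in R1 and E14 EpiLC than in R1 and E14 ESC. The sums did not follow Dcn in every library: with dox the sum was 11.6 FPKM, of which Acta2 made 7.06, and Dcn had 0.0426. Of the collagen markers, Col1a2 had 0.0222 FPKM with dox, while Col1a1 had 0.261 and Col6a1 0.140. A relation was not tested.

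Several well-expressed members lay at like levels in ESC and EpiLC, with changes that did not pass. Igf2r, the receptor that clears IGF2, had 19.9 ± 4.61 FPKM in ESC and 22.8 ± 0.940 in EpiLC (SD, n = 3 each). Ube3a, the ubiquitin ligase gene imprinted in neurons, had 29.7 ± 5.59 and 28.1 ± 2.87. Zrsr1, a splicing factor gene, had 6.89 ± 1.22 and 5.72 ± 0.376. The log2 fold changes were 0.21 for Igf2r, -0.07 for Ube3a and -0.22 for Zrsr1 (limma adjusted p = 0.484, 0.814 and 0.380). Gnas, which encodes the stimulatory G protein alpha subunit, had 0.07 and Mcts2, a retrogene inside H13, -0.19. Copg2, which overlaps Mest, had 0.40, and Impact, a regulator of translation, -0.70 (limma adjusted p = 0.195). Over all 10 libraries Gnas had between 76.9 and 201 FPKM, Impact between 35.9 and 106, Mest, a hydrolase-like membrane protein gene, between 24.2 and 68.0, Copg2 between 14.4 and 33.6 and Mcts2 between 19.5 and 35.9. Inpp5f, a phosphoinositide phosphatase gene, had between 5.76 and 14. Lower still were Ndn, a neuronal growth suppressor, between 1.56 and 7.90, Peg12 between 0.385 and 3.63 and the transporter gene Slc22a18 between 1.02 and 3.05. Airn, the noncoding RNA that silences Igf2r on the paternal copy, had between 0.430 and 1.84 FPKM over the 10 libraries.

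**Figure D3:**
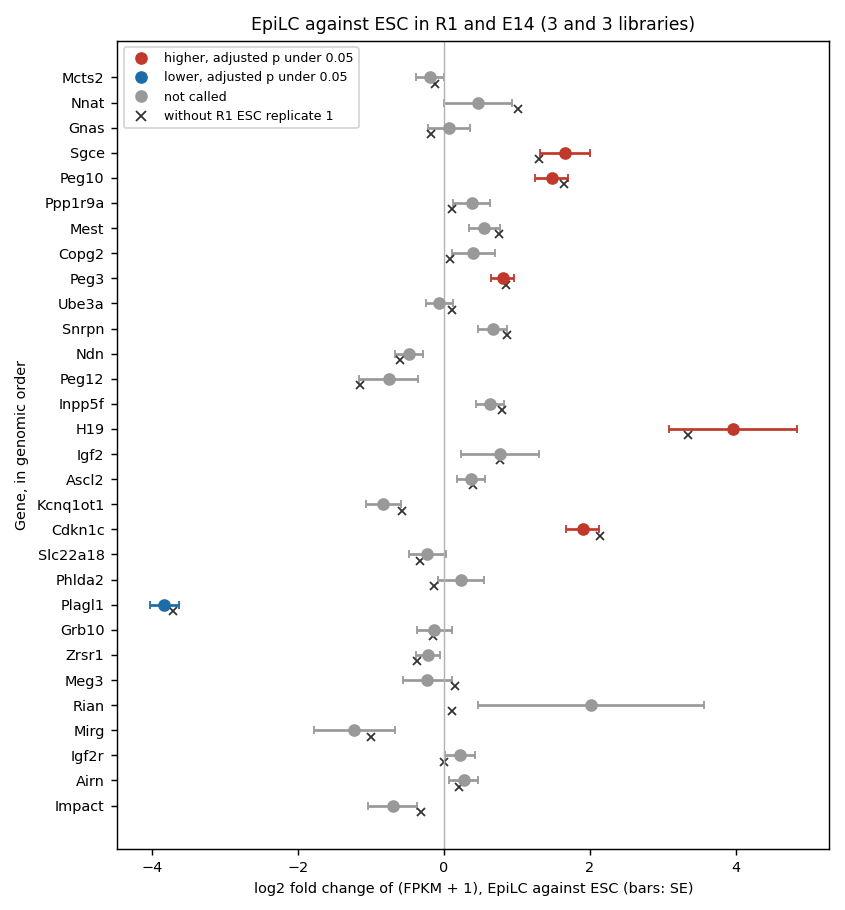
Log2 fold change of (FPKM + 1) with its SE (x axis) for the 30 imprinted genes tested between 3 EpiLC and 3 ESC libraries of R1 and E14, in genomic order (y axis). Filled circles are coloured where the limma adjusted p is under 0.05, and crosses give the value without R1 ESC replicate 1. Plagl1 lies at -3.83 and H19 at 3.96, and Rian moves from 2.02 to 0.11 without that library.

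The Dlk1-Meg3 cluster on chromosome 12 (110691033 to 110987667, mm9) held some of the most abundant members. Meg3, Rian and Mirg are maternally expressed noncoding RNAs read in the same direction, and they host microRNAs and small nucleolar RNAs. Meg3 is known to be silenced in some ESC lines, which limits their development, and it was abundant in every library here. It had 164 and 71.2 FPKM in R1 ESC, 103 in E14 ESC and 94.8 in Otx2-/- ESC. In EpiLC it had 93.8 in R1 without activin A, 75.5 with it, 105 in E14 and 119 in Otx2-/-. The log2 fold change of EpiLC against ESC was -0.23 (limma adjusted p = 0.646).

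Rian was listed at 0 in R1 ESC replicate 1 and had between 39.2 and 114 FPKM in the other 9 libraries. Small RNA entries share its locus. Its fold change rests on that 0: the log2 value was 2.02 (limma adjusted p = 0.386) with all libraries and 0.11 without replicate 1 (limma adjusted p = 0.794, the top of its range over alternatives, which began at 0.134).

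Mirg differed between ESC libraries. It had 29.2 and 30.2 FPKM in R1 ESC, against 9.62 in E14 ESC and 8.75 in Otx2-/- ESC. In EpiLC it had 8.61 in R1 without activin A, 4.57 with it, 13.6 in E14 and 12.5 in Otx2-/-. The tetON ESCs had 49.0 without and 69.3 with dox, so levels differed widely within the Otx2-/- line too. R1 was lower in EpiLC, while E14 and Otx2-/- were slightly higher. With either E14 library left out, so that R1 alone sets the estimate, the log2 fold change was -2.07 (limma adjusted p = 0.0407 without E14 ESC and 0.0432 without E14 EpiLC, within a range of 0.0407 to 0.429 over alternatives). Over both lines it was -1.23 (SE 0.56, limma adjusted p = 0.174), and the E14 response minus the R1 response was 2.52 (SE 0.54, limma adjusted p = 0.914, unadjusted 0.00903). The ratio of Meg3 to Mirg was 5.64 and 2.36 in R1 ESC and 3.22 and 3.01 in the tetON ESCs without and with dox, and between 7.73 and 16.5 in the other 6 libraries.

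Dlk1, the paternally expressed ligand of the cluster, was low. It had at most 0.491 FPKM in the 5 ESC libraries without dox and between 0.622 and 1.54 in EpiLC. With dox it had 7.46.

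**Figure D4:**
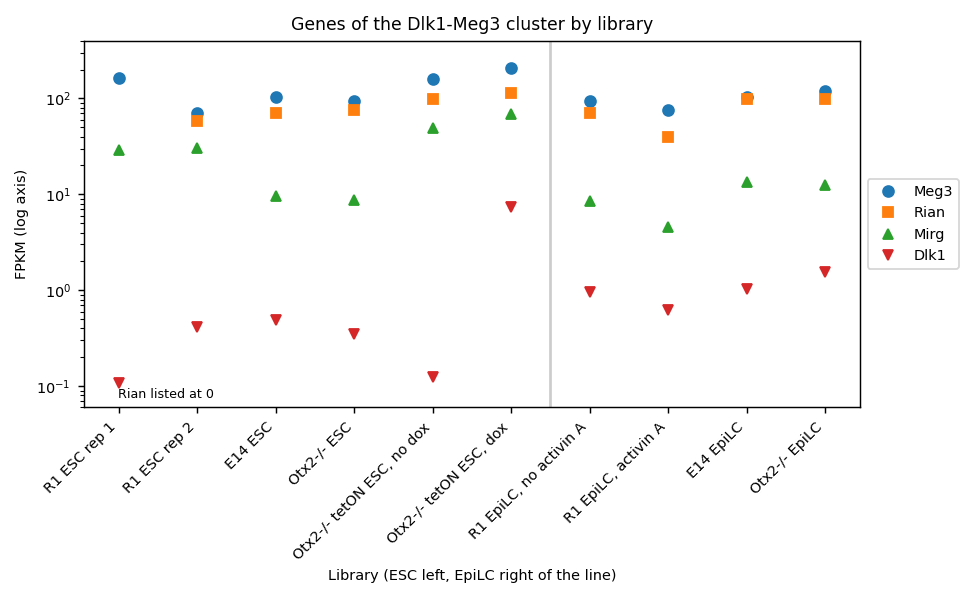
FPKM on a log axis of Meg3, Rian, Mirg and Dlk1 in the 10 libraries, 6 ESC left and 4 EpiLC right of the line. Rian is listed at 0 in R1 ESC replicate 1, Mirg is above 29 FPKM in R1 ESC and in the tetON libraries alone, and Dlk1 passes 2 FPKM in the dox library alone.

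Activin A, a ligand that supports the primed state through Nodal receptors, was added to 1 of the R1 EpiLC libraries. These are 1 library against 1, with no replicate check. Of 24 members with at least 5 FPKM in the pair, 2 were at least 2-fold lower on the scale of FPKM + 1 with activin A and 0 higher, against 2.14% of all genes in either direction (1.07% each way). The neighbours H19 and Igf2 were those 2. Igf2 reached 5 FPKM without activin A alone, so it entered the count through its higher library. H19 had 22.4 FPKM with and 122 without activin A (log2 ratio -2.40), and Igf2 1.77 and 8.08 (-1.71). Next were Rian (-0.82) and Mirg (-0.79). The median log2 ratio of the 24 was -0.10, against -0.01 over all genes.

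With activin A, H19 was nearer to its levels of 8.55 FPKM in E14 and 6.46 in Otx2-/- EpiLC, for which the labels give no activin A status. In the pair of R1 ESC replicates, which had the same treatment, 2 of 21 members were 2-fold higher in replicate 2 and 3 lower, against 11.5% of all genes (5.42% higher and 6.09% lower), so such counts are also found between replicates. Phlda2 was the higher one besides Rian, which counts only through its 0 in replicate 1, and such a 0 can be a failed estimate. Impact, Meg3 and Nnat were lower, and Nnat reached 5 FPKM in replicate 1 alone.

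Between the E14 and R1 lines, no member passed in limma with the state as a covariate (0 of 30, against 0.0408% of all genes), and 5 had an unadjusted p under 0.05, against 3.76% of all genes. These were Grb10, Cdkn1c, Ascl2, Mest and Peg3. Grb10, an adaptor protein that restrains insulin and IGF signalling, is maternally expressed in most tissues and lies on chromosome 11 at 11830502 to 11937423 (mm9). It had 10.1 and 13.2 FPKM in R1 ESC, 8.72 and 7.76 in R1 EpiLC, 22.8 in E14 ESC and 32.3 in E14 EpiLC. The E14 libraries lay above all 4 R1 libraries, with a log2 difference of 1.39 (SE 0.26, limma adjusted p = 0.996, unadjusted 0.0022).

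Grb10 also varied within the Otx2-/- line. It had 19.6 FPKM in Otx2-/- ESC and 35.9 in Otx2-/- EpiLC, but 7.74 in the tetON derivative without dox and 4.51 with it. The first pair lay near E14 and the second near or below R1. For the E14 response minus the R1 response, 0 of 30 members passed in limma (0.327% of all genes), and 2, Mirg and Gnas, had an unadjusted p under 0.05 (3.1% of all genes). Gnas had 127 FPKM in E14 ESC and 76.9 in E14 EpiLC, while R1 had 86.5 and 120.2 in ESC and 134 and 148 in EpiLC.

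The Otx2-/- label was compared within each state, with 1 library so labelled against 3 of R1 and E14. The lone library was assumed to vary like the others. No member of 30 passed in limma in ESC (0.139% of all genes) or in EpiLC (0.163%), and in each state 2 had an unadjusted p under 0.05 (1.08% of all genes in ESC and 3.59% in EpiLC). In EpiLC these were Cdkn1c and Phlda2, maternally expressed neighbours that both restrain growth. Cdkn1c had 85.2 FPKM in Otx2-/- EpiLC against 18.7 ± 8.57 in R1 and E14 (SD, n = 3; log2 difference 2.21, SE 0.48, limma adjusted p = 0.866). Phlda2, which limits growth of the placenta and lies at 150687453 to 150688429 on chromosome 7 (mm9), had 72.3 FPKM against 27.4 ± 2.86 (SD, n = 3; 1.37, SE 0.49, limma adjusted p = 0.960). In both genes the Otx2-/- library was above the other EpiLC libraries, and Otx2-/- ESC was above the R1 and E14 ESC libraries, at 7.84 FPKM for Cdkn1c and 40.3 for Phlda2.

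In ESC the members with an unadjusted p under 0.05 were Plagl1 and Peg10, both lower in the library labelled Otx2-/-, whose Otx2 level of 7.85 FPKM lay within that of R1 and E14 ESC. Plagl1 had 5.09 FPKM in Otx2-/- ESC against between 16.0 and 28.2 (log2 difference -1.93, SE 0.32, limma adjusted p = 0.384). Peg10 had 24.7 against between 50.4 and 69.8 (-1.17, SE 0.29, limma adjusted p = 1.00). In EpiLC labelled Otx2-/- Peg10 reached 167 FPKM, within the range of R1 and E14, and Plagl1 had 0.0969, below the others. For the Otx2-/- response minus that of R1 and E14, 0 of 30 passed (0.277% of all genes) and 2 had an unadjusted p under 0.05 (1.58%), Peg10 at 1.24 and Plagl1 at 1.36 (limma adjusted p = 0.997 for both, unadjusted 0.0233 and 0.0227).

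Over all 4 Otx2-/- libraries against all 6 of R1 and E14, with state and dox as covariates, 0 of 31 members passed in limma (0.00809% of all genes), and 4 had an unadjusted p under 0.05 (4.22% of all genes). The 4 libraries come from 1 line, so this measures the spread between cultures and not between clones, and they differ in Otx2 itself, from 7.85 to 1059 FPKM. The dox term is set by the dox library alone, so that library does not enter the differences below. They rest on the other Otx2-/- libraries. With dox Phlda2 had 6.55 FPKM, below every R1 and E14 library. Plagl1 was lower (log2 difference -1.14, SE 0.27, limma adjusted p = 0.670), as was Peg3 (-0.47, SE 0.17), and Cdkn1c (1.22, SE 0.38) and Phlda2 (0.88, SE 0.30) had positive differences (limma adjusted p = 0.998 for these 3). For 0 of 31 members did the 4 libraries lie wholly outside the 6 (0.947% of all genes). Zim1, left out by the filter on low values, did so at very low levels. It had between 0.0558 and 0.140 FPKM in the 4 and between 0.204 and 0.313 in the 6. Without dox the tetON ESCs had 9.93 FPKM of Plagl1 and 34.7 of Peg10, which like Otx2-/- ESC is below the range of the R1 and E14 ESC libraries.

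The tetON derivative without dox differed from the Otx2-/- ESC library by 2-fold or more in 3 of 21 members (2.7% of all genes, 1.34% higher and 1.36% lower), Mirg higher and Grb10 and Kcnq1ot1 lower. Mirg had 49.0 against 8.75 FPKM, and Kcnq1ot1 4.96 against 11.3. Kcnq1ot1 thus entered the count through the Otx2-/- ESC library alone. Otx2 had 45.8 against 7.85 FPKM in this pair. The pair also has no replicate check, and the transgene and the culture cannot be told apart.

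Between the tetON ESCs with dox, which induces Otx2, and without, more genes were counted than between tetON without dox and Otx2-/- ESC. Of 25 members with at least 5 FPKM in the pair, 7 were at least 2-fold higher and 2 at least 2-fold lower with dox, against 12.1% of all genes (6.42% higher and 5.71% lower). The higher ones were Dlk1, Nnat, H19, Peg10, Sgce, Cdkn1c and Ascl2, and the lower ones Phlda2 and Plagl1. Dlk1, Nnat, H19, Sgce and Ascl2 reached 5 FPKM with dox alone and Plagl1 without dox alone. These entered the count through the library where they are high, as the rule allows for all genes. The pair is 1 library against 1, so no test was made. The R1 ESC replicates, which had the same treatment, gave 11.5% of all genes and 5 of 21 members by the same rule. Nnat and Phlda2 were counted in that pair too. The share of all genes with dox lay near that between these replicates, of which replicate 1 stood apart. Between tetON without dox and Otx2-/- ESC it was 2.7%. The median log2 ratio of the 25 was 0.32, against -0.06 over all genes.

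Of the 6 genes called between R1 and E14 ESC and EpiLC, 5 were also counted here, on the same side. Of all 2484 genes called in that comparison 15.9% were. To be counted a gene must reach 5 FPKM in the dox pair. All 6 did, but this was not required of the 2484, so the shares rest on unlike sets and are not compared. Peg10 had 109 FPKM with and 34.7 without dox (log2 ratio 1.62), and Sgce 9.90 and 2.66 (1.58). H19 had 9.22 and 2.07 (1.73) and Cdkn1c 12.5 and 5.46 (1.06). Plagl1 had 4.02 and 9.93 (-1.12), which stayed above its level in EpiLC. Peg3 had 12.6 and 6.76 FPKM and did not reach 2-fold on this scale.

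Others went past their EpiLC level or differed from it. Dlk1 had 7.46 FPKM with and 0.125 without dox (log2 ratio 2.91), while its highest level in EpiLC was 1.54. Dlk1 was also higher in each R1 and E14 EpiLC library than in each R1 and E14 ESC library, by less. Ascl2, a transcription factor of the trophoblast, had 6.18 and 2.47 FPKM (1.05). Phlda2 had 6.55 with and 30.3 without dox (-2.05), while R1 and E14 EpiLC had between 25.5 and 30.7. Nnat had 15.0 and 3.38 (1.87), and R1 ESC replicate 1 had 16.1 without any Otx2 transgene. The fibroblast markers summed to 11.6 FPKM with and 5.47 without dox, of which Acta2 made 7.06 and 0.897 and Postn 0.897 and 0. Their part in these differences was not tested.

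**Figure D5:**
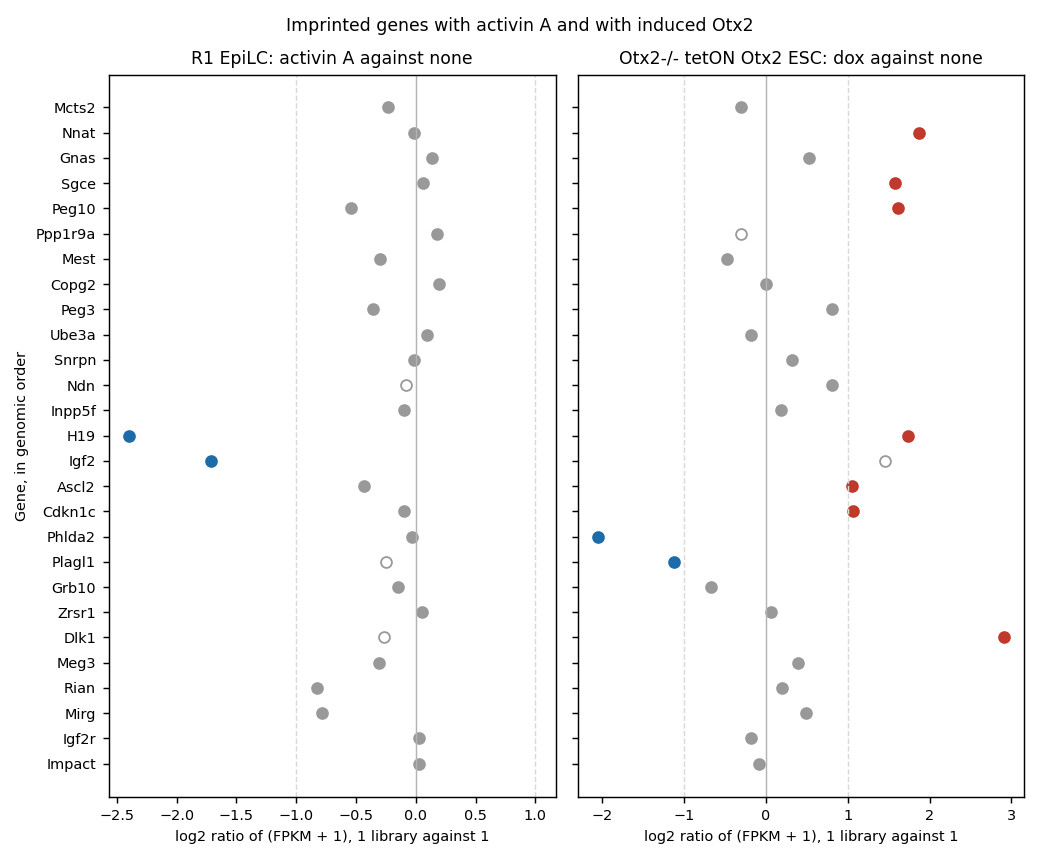
Log2 ratio of (FPKM + 1) between 1 library and 1 (x axis) for members that reached 5 FPKM in either pair, in genomic order (y axis). The left panel shows R1 EpiLC with activin A against without, and the right panel Otx2-/- tetON Otx2 ESC with dox against without. Red and blue mark at least 2-fold higher or lower (dashed lines), and open points did not reach 5 FPKM in that pair. H19 and Igf2 are the blue points on the left, and Dlk1 at 2.91 is the highest point on the right.

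The genes of proteins that keep imprints and DNA methylation changed in both directions on conversion of R1 and E14. Of 26 such genes, 5 rose and 5 fell in limma, beside 9.73% and 10.6% of all genes. Zfp57, the protector of imprints named above, had 313 and 162 FPKM in R1 ESC, 189 in E14 ESC and between 34.8 and 44.4 in the 3 EpiLC libraries (log2 fold change -2.45, limma adjusted p = 0.00595). The de novo methyltransferase genes Dnmt3a (2.79) and Dnmt3b (2.37) rose, as did Ctcfl (1.25), Dppa3 (1.07) and Smchd1 (0.69). Besides Zfp57, Tet2 (-1.73), Eed (-1.32), Setdb1 (-0.81) and Uhrf1 (-0.68) fell. Between E14 and R1 (0.0408% of all genes), and for the Otx2-/- label in ESC (0.139%) and EpiLC (0.163%), 0 of 26 passed in limma, with 1 at an unadjusted p under 0.05 in the first and 0 in the others.

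Of 24 further imprinted genes tested from a list of 45, 3 rose and 3 fell. Atp10a, a phospholipid flippase gene (2.40), and the paraoxonase genes Pon2 (2.13) and Pon3 (0.98), which neighbour Peg10, rose. Cobl (-3.26), an actin nucleator gene next to Grb10, Ddc (-1.44), an enzyme of amine synthesis beside it, and Blcap (-0.58), the host of Nnat, fell. The 6 called of 24 stand beside the 20.3% of all genes.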

How the data were processed

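The authors deposited FPKM values per gene and library, made with TopHat and Cufflinks on build mm9, per the submitters' processing notes. The notes name no versions, annotation or settings. Poly(A)-selected RNA was primed with random hexamers, per the labels' protocols. The 10 tables held 23112 entries each. Exact repeats (17) were dropped and 228 entries were summed with another of their symbol. Coordinates are those of the tables with starts counted from 1. The members and lists were chosen with earlier results of these data known. Every member was named, those of at least 5 FPKM with values or their range and the others by range.

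FPKM are not counts, so limma 3.58.1 in R 4.3.3 (eBayes with trend, two-sided, threshold 0.05) was run on log2(FPKM + 1), keeping genes whose mean over the compared libraries reached 1 FPKM, and the fit was tested on simulated data. A fold change on this scale understates that of low genes. Fewer cells of a type and less RNA per cell cannot be told apart in bulk RNA. The labels call the ESC and EpiLC cultures independent biological replicates, without saying which. Pairs of libraries were described by log2 ratios. Other pseudocounts, filters, scalings and covariates were tried, and libraries left out in turn.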

Additional observations from a re-analysis of the deposited data

How the results depend on the processing

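No member's call changed sign under any alternative. Of the 6 genes called in EpiLC against ESC, Plagl1 and Cdkn1c were called in all 16 fits, Peg10 and Sgce in 13, Peg3 in 11 and H19 in 10. The members called numbered 10 in a fit of 8 libraries with the line as a covariate, and between 2 and 14 with a library left out. Over all genes, 2484 calls became 1644 when the mean had to reach 5 FPKM and 3870 with 8 libraries, and between 398 and 4118 with a library left out. Median-ratio scaling turned the split from 1191 higher and 1293 lower to 1364 and 1171. For the E14 response minus that of R1, 40 calls became 17 with a pseudocount of 0.1 FPKM, 13 at 5 FPKM and between 0 and 127 with a library left out. E14 against R1 gave between 4 and 34, against 5. Otx2-/- ESC gave 17 calls, 34 with no filter on low values, 5 at 5 FPKM, 37 in ESC libraries alone and between 20 and 26 with a library left out. Otx2-/- EpiLC gave 20, 59 with no filter and between 21 and 42 with a library left out. The Otx2-/- response gave 34, 55 with no filter, 11 at 5 FPKM and between 38 and 47 with a library left out. All 4 Otx2-/- libraries gave 1, 2 with a pseudocount of 0.1 FPKM, 6 with quantile normalization, 2 without the transgene libraries and between 0 and 5 with a library left out. In these 6 comparisons 0 members passed in limma under any alternative. With 1.5-fold in place of 2-fold, pairs counted 345 genes and 4 members for activin A (192 and 2 at 2-fold), 2336 genes for dox (1128), 636 genes and 5 members for tetON without dox (242 and 3), and 3146 genes and 10 members for the R1 ESC replicates (1053 and 5). Between these replicates the median gene lay at -0.22 as deposited and at -0.08 after median-ratio scaling. The causes were not tested. No paired analysis was possible because replicate numbers are given for R1 ESC alone. E14 libraries could not be left out of the E14 response, nor the Otx2-/- library out of a comparison made with 1 such library per state.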

Other observations

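Genes beside the clusters that are not imprinted in most tissues gave a comparison within the same neighbourhoods. Of 10 tested from a list of 14, 1 rose in R1 and E14 EpiLC against ESC, the mitochondrial ribosome gene Mrpl23 next to H19, and 0 fell in limma, beside 20.3% of all genes called. Their median log2 fold change was -0.14, against -0.09 over all genes and 0.25 over the 30 imprinted genes tested. Herc2, a ubiquitin ligase gene of the Snrpn region, was listed at 0 in E14 and Otx2-/- EpiLC and had between 9.0 and 16.8 FPKM in the other 8 libraries. It alone of the 10 passed in the E14 response minus that of R1, and since a 0 in such tables can be a failed estimate, no fold is given.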
